A study of Homo sapiens with 36 samples.

Results

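The pseudopod RNA of 2 carcinoma lines was compared with that of 3 lines of mesenchymal type. All 15 pseudopod arrays of these 5 lines were used, out of 36 arrays in the series. The carcinoma group held the 6 pseudopod arrays of DU145, which derives from a prostate carcinoma, and of MDA231, which derives from a breast carcinoma. The mesenchymal group held the 9 pseudopod arrays of U87 and U251, both glioblastoma lines, and HT1080, a fibrosarcoma line.

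The study profiled 6 human cancer lines on Affymetrix HG-U133 Plus 2.0 arrays and measured pseudopods and cell bodies separately. In each line the cells were cultured for 24 h on porous filters, and both fractions were then scraped from opposite faces of the filter. Each of the 12 groups of line and fraction had 3 arrays, made from 100 ng of total RNA labelled in 2 cycles. DU145 and MDA231 were grown in RPMI-1640, and U87, U251 and HT1080 in high-glucose DMEM, all with serum. The labels name no drug treatment and no genetic change in any line. Medium and kind of line cannot be told apart in this comparison. The sixth line, MDA435, was also grown in RPMI-1640 and serves here only as an additional line in that medium. The labels do not say whether replicates were separate cultures, so the p-values measure the spread between these arrays, which may be technical.

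A pseudopod is a protrusion that a migrating cell pushes forward by assembling actin filaments, and some messenger RNAs are carried into it. Epithelial cells are joined side by side through cadherins, claudins and desmosomes and carry keratin filaments. Cells of mesenchymal type lack most of these junctions, carry vimentin filaments and make collagens and fibronectin. Transcription factors of the TWIST, ZEB and SNAI families govern that state, and carcinoma cells can take up part of it in the epithelial-mesenchymal transition (EMT).

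Values are the deposited linear intensities of 1 probe set per gene. Differences are carcinoma minus mesenchymal means of log2(intensity + 16), with each line weighted equally within its group, and folds on this scale understate the difference of dim genes. Intensities of different genes cannot be set against each other, because probe sets differ in brightness. Between 39.1% and 47.5% of probe sets lay at or below 16 intensity units in the 15 arrays. Each of the 15 arrays correlated best with another array of its own line, with r from 0.941 to 0.99 within lines over genes. The standard deviation of replicate arrays about their group mean, in log2 units, was 0.412 in MDA231 and 0.371 in U87, against 0.251 in DU145, 0.227 in HT1080 and 0.218 in U251. In such bulk samples, fewer cells of a type and less RNA per cell cannot be told apart.

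The kind of line was checked against marker genes. Of 10 epithelial markers (CDH1, EPCAM, KRT7, KRT8, KRT18, KRT19, CLDN4, CLDN7, ESRP1 and GRHL2), 7 separated all 6 carcinoma arrays from all 9 mesenchymal arrays, and CDH1, KRT8 and GRHL2 did not. CDH1, which encodes the adhesion protein E-cadherin, measured 319, 1489 and 1349.9 in the DU145 arrays and 4.5, 13.7 and 1299 in the MDA231 arrays. It lay between 1.0 and 5.2 in the 9 mesenchymal arrays. CDH1 was thus low in 2 of the 3 MDA231 arrays, and MDA231 replicate 3 stood with DU145. Of 7 mesenchymal markers (VIM, FN1, CDH2, SPARC, ZEB1, COL1A2 and COL5A2), CDH2 and SPARC separated the groups. VIM, which encodes the filament protein vimentin, was bright in every array, from 3080.3 to 3932 in carcinoma and from 3575 to 7169 in mesenchymal arrays. The data therefore show epithelial genes in both carcinoma lines beside a high vimentin level, and "carcinoma" below means DU145 and MDA231 and no more.

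MDA231 replicate 3 was the brightest MDA231 array for several epithelial genes. EPCAM, an epithelial surface adhesion protein, stood at 362, 318 and 3019 in MDA231 replicates 1, 2 and 3, and RAB25, a trafficking GTPase of epithelia, at 9.5, 11.1 and 587. The summed intensity of 30 epithelial junction genes was 5123, 4019 and 12593 in the same arrays. Without this array the differences, in log2 units, were 3.03 for CDH1 (3.99 with it), 4.30 for EPCAM (4.81), 3.94 for MAL2 and 1.22 for FOXA1, a luminal transcription factor, and all 4 were still called (limma). Counts without it are given beside some of the lists, but it moved others too. Without it, 6 HOX genes were higher and 12 lower (5 and 9 with it), with a median of -0.32 (-0.06). For cytokines and chemokines the counts were 10 and 8 (12 and 7). Among receptor tyrosine kinases 9 were lower (7), and in the TGF-beta and BMP pathway 15 (13). Further lists moved as well, and not all of their counts without it are given.

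The pseudopods of the groups differed in many genes when arrays were the units, and in few when lines were. Of 14676 genes tested, 7243 (49.4%) were called, 3913 (26.7%) higher and 3330 (22.7%) lower in carcinoma at an adjusted p under 0.05 (limma on 5 group means, Benjamini-Hochberg adjustment). The median difference over all genes was 0.03. This test takes arrays as units and speaks of these 5 lines only. Of the called genes, 3921 (54.1%) had line means that overlapped between the groups. All 6 carcinoma arrays lay above all 9 mesenchymal arrays in 499 genes (3.4%) and below them in 413 genes (2.81%), and all 912 were called. Of those, 115 were at least 4-fold higher and 101 at least 4-fold lower in carcinoma. With the 5 line means as units (2 against 3, with 3 residual degrees of freedom), 14 genes (0.0954%) were called and 1241 had an unadjusted p under 0.05.

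The 14 genes were also among those without overlap of arrays. Higher in carcinoma were KRT19, HTATIP2, PLIN2, SPINT2, MYEOV, SERPINB9, FAM201A, RASD1 and CLDN7, and lower were SPARC, HS3ST3A1, BEX1, MAGEA1 and ZNF365 (limma on line means, adjusted p from 0.0161 to 0.0441). Leaving out 1 array at a time gave between 11 and 20 genes, and 11 without MDA231 replicate 3. The count of genes called with arrays as units is large beside that from line means, so most differences below describe these 5 lines.

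KRT19 had the largest difference. It encodes keratin 19, the smallest keratin of simple epithelia. Its intensity was 3549.9, 3221 and 2849 in DU145 and 2998, 2522 and 1793 in MDA231, and it did not pass 16 in any of the 9 mesenchymal arrays. The groups were far apart, with a difference of 7.16 ± 0.13 (SE; 143-fold; limma, adjusted p = 1.05e-14 with arrays and 0.0161 with lines as units).

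**Figure D1:**
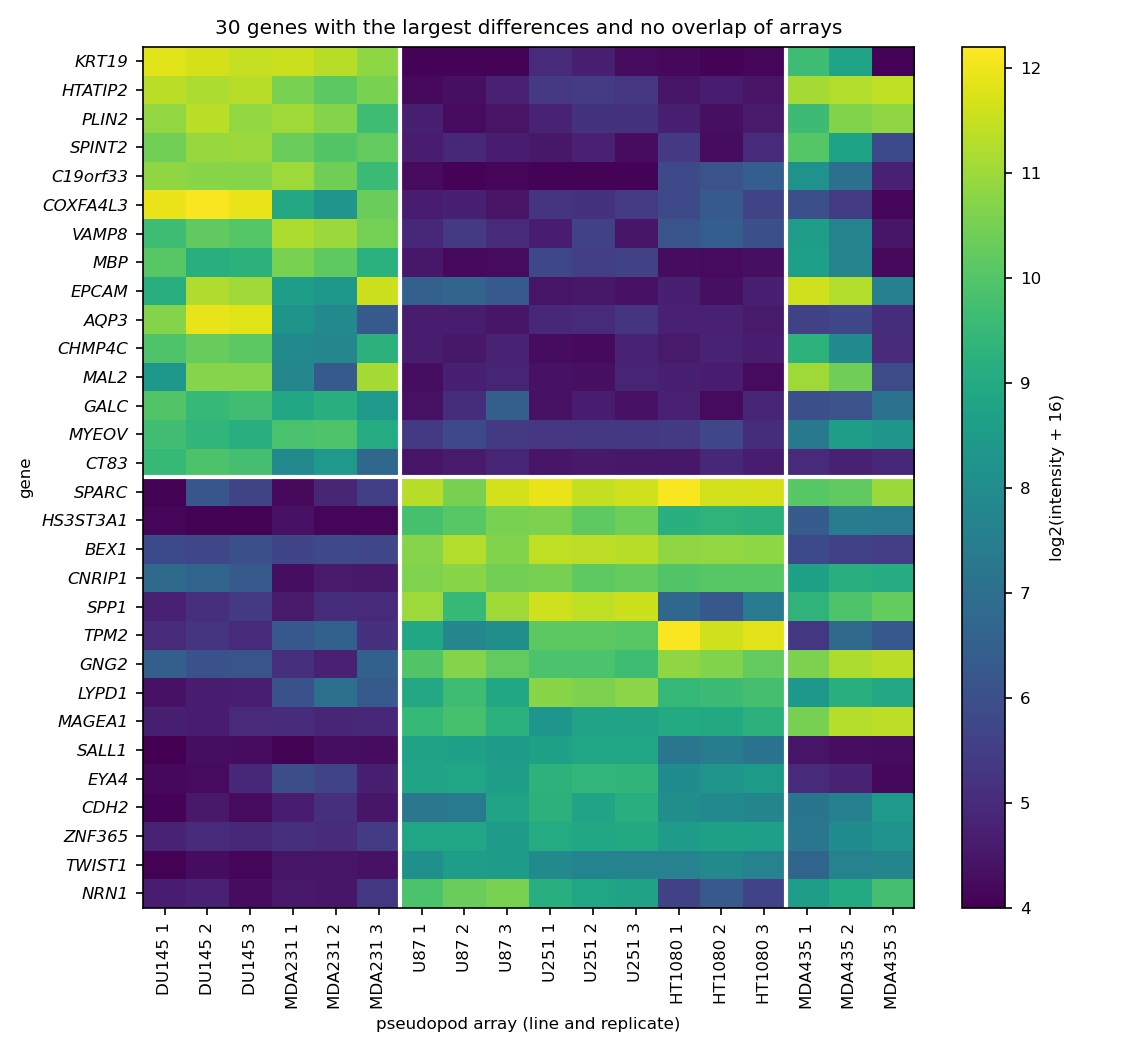
Level, as log2(intensity + 16) on the colour scale, of the 15 genes with the largest differences in each direction whose carcinoma and mesenchymal pseudopod arrays did not overlap. Columns are the 3 replicate arrays of each line, with white lines between carcinoma lines, mesenchymal lines and MDA435, which was not part of the comparison; KRT19 stands at the top and the block of 15 genes led by SPARC at the bottom.

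The other genes with large excess in carcinoma are shown in the map of gene levels by array. HTATIP2, an NADPH-dependent oxidoreductase, ranged from 1114.5 to 2574 in carcinoma and from 2.3 to 26.5 in mesenchymal arrays (difference 6.09). PLIN2, the coat protein of lipid droplets, ranged from 781 to 2569 against 3.1 to 21 (6.04). SPINT2, an inhibitor of epithelial serine proteases, ranged from 1019 to 1979 against 3.2 to 24.7 (5.78). In each of these the lowest carcinoma array was far above the highest mesenchymal array, and both carcinoma lines contributed.

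C19orf33 differed by 5.76, COXFA4L3 by 5.32, VAMP8, a vesicle fusion protein, by 5.01, and MBP, which encodes myelin basic protein, by 5.00. EPCAM differed by 4.81, the water and glycerol channel gene AQP3 by 4.69, CHMP4C, a subunit of the ESCRT membrane scission complex, by 4.62, and MAL2, a protein of apical transport, by 4.61. GALC, which encodes a lysosomal galactosylceramidase, differed by 4.48, MYEOV by 4.10, and CT83, a cancer/testis antigen, by 4.09. Several of these were uneven within the carcinoma group. AQP3 stood at 1633, 3891 and 3553 in DU145 and at 289, 218 and 63.4 in MDA231. MAL2 ranged from 64.8 to 2181 over the 6 carcinoma arrays and from 3.0 to 13.1 over the mesenchymal ones.

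SPARC had the largest difference in the other direction. It encodes osteonectin, a collagen-binding matrix glycoprotein. The 9 mesenchymal arrays ran from 1449 to 4478 with a median of 3172, and the 6 carcinoma arrays from 0.70 to 57 with a median of 21.8 (-6.46 ± 0.29; limma, adjusted p = 1.78e-10 with arrays and 0.0161 with lines as units). HS3ST3A1, a heparan sulfate sulfotransferase, ran from 572 to 1522 in mesenchymal arrays and did not pass 5.3 in carcinoma (-5.78). BEX1, a brain-expressed adaptor, was even within each group, from 1576 to 2737 against 36.8 to 48.6 (-5.22).

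Next came CNRIP1 (-4.78), which encodes a protein that binds the cannabinoid receptor, SPP1 (-4.62), which encodes the secreted osteopontin, TPM2 (-4.54), which encodes a tropomyosin, and the G protein subunit gene GNG2 (-4.38). LYPD1 (-4.31), MAGEA1 (-4.21), a cancer/testis antigen, the developmental transcription regulators SALL1 (-4.03) and EYA4 (-3.83), and CDH2 (-3.73) followed. The last were ZNF365 (-3.70), TWIST1 (-3.67) and NRN1 (-3.67), a neurite outgrowth protein. The mesenchymal lines were not alike in these genes. SPP1 was at 2044, 699 and 2093 in U87 and at 3137, 2705 and 3028 in U251, but at 91.2, 60.3 and 153 in HT1080. TPM2 had another order, with 4406, 3133 and 3633 in HT1080, 1106.5, 1118 and 1061 in U251 and 466, 207 and 247 in U87.

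Epithelial junction genes were mostly higher in the carcinoma pseudopods. Of 34 genes in the list (cadherins, claudins, desmosome and tight junction proteins), 30 were tested, of which 27 were higher and 0 lower, beside 26.7% and 22.7% of all genes. For 9 of the 30 the arrays did not overlap, beside 3.4% of all genes. Each list count below is to be read beside the shares of all genes, 26.7% higher, 22.7% lower and 6.21% without overlap. The list's median difference was 1.501 and that of all genes 0.03. Without MDA231 replicate 3, 27 of 29 were higher, 1 was lower, 9 did not overlap, and the median was 1.32. With lines as units CLDN7 was the 1 member called.

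**Figure D2:**
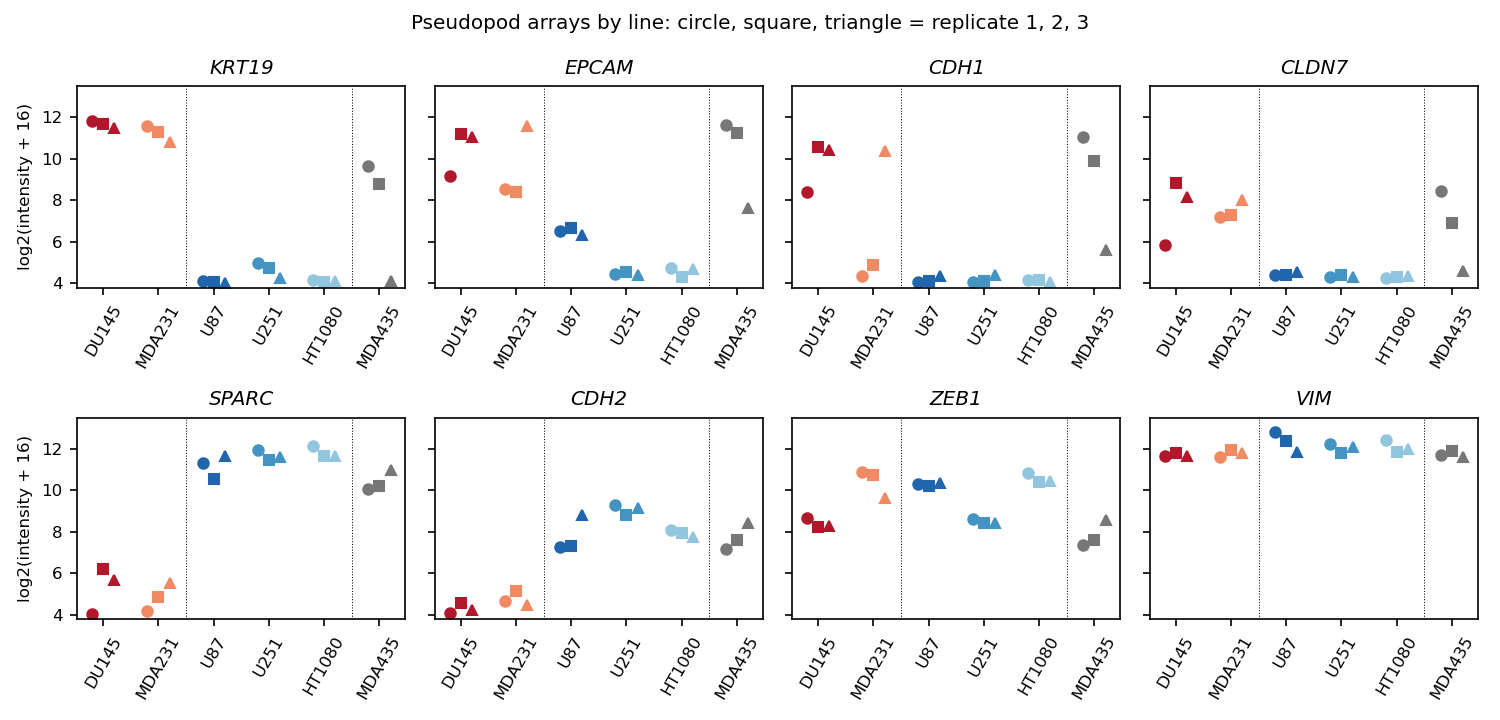
Level, as log2(intensity + 16), of 8 marker genes in every pseudopod array of 6 lines; symbols mark the replicate and dotted lines separate carcinoma lines, mesenchymal lines and MDA435. KRT19, CLDN7, SPARC and CDH2 separate the carcinoma from the mesenchymal arrays, CDH1 is high in 1 of 3 MDA231 arrays, ZEB1 overlaps, and VIM is bright throughout.

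EPCAM ran from 318 to 3019 in carcinoma and from 4.0 to 85.4 in mesenchymal arrays. CLDN7, a claudin of tight junctions, had 41.6, 432 and 269 in DU145 and 128, 141 and 243 in MDA231, against at most 7.5 in mesenchymal arrays (3.18 ± 0.32; limma, adjusted p = 1.1e-06 with arrays and 0.0261 with lines as units). DSP, the desmosomal plaque protein desmoplakin, ran from 456 to 1644 against 6.4 to 367, with U87 at or under 7.8 and the other mesenchymal lines at 187 or more. CLDN4 (2.63), OCLN, which encodes the tight junction protein occludin (2.32), JUP, which encodes plakoglobin (2.29), and MARVELD2, which encodes tricellulin (2.23), were also without overlap. So were EVPL (1.40) and TJP3 (0.84), both dim, with carcinoma arrays between 8.2 and 58.6.

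Further junction genes were higher in carcinoma through 1 line or overlapped with U251. CLDN1 stood at 1832, 1406 and 1484 in DU145 but at 45.7, 44.4 and 164 in MDA231, while U251 held 1052, 867 and 838. CXADR, a junctional adhesion protein, had 1397, 1659.5 and 1530 in DU145, 149, 127 and 437 in MDA231 and 1099, 886 and 985 in U251. PKP2, a desmosomal plakophilin, was higher in MDA231 (344, 322 and 926) and U251 (487, 543 and 494.5) than in DU145 (39.1, 40.5 and 51.5). CDH1 differed by 3.99 ± 0.69 (limma, adjusted p = 0.000219 with arrays and 0.466 with lines as units). GJB2, which encodes the gap junction protein connexin 26, differed by -0.98 and missed the threshold (limma, adjusted p = 0.0589).

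The promoters of the 9 junction genes without overlap are shown because the binding site of the ZEB and SNAI repressors is a short sequence that can be looked for in them. The E-box motif searched was CAGGTG and its reverse complement CACCTG, so both strands were covered, in the 250 bases before each RefSeq transcript start in the GRCh38.p14 annotation. Of the 9 genes, 7 had an entry in the RefSeq table used here, with 11 start sites. The motif was present before 6 of 11 starts (54.5%), beside 16.3% of the starts of all tested genes, and in 5 of 7 genes (71.4%). Among all tested genes with an entry it was present in 2476 of 11780 (21.0%), in 97 of 381 (25.5%) of the carcinoma-higher and 68 of 354 (19.2%) of the mesenchymal-higher genes without overlap. The stretches that follow run 5′ to 3′ along the transcribed strand with the motif in capitals. The DSP window is chr6:7541421-7541670 on the plus strand, with motifs that begin 178 and 85 bases before the start. The OCLN window is chr5:69492297-69492546 on the plus strand, with a motif 33 bases before the start. For CLDN7 the last 30 bases before the start are given, chr17:7262479-7262508 on the minus strand; its full window held 4 motifs, which begin 174, 135, 20 and 9 bases before the start.
DSP: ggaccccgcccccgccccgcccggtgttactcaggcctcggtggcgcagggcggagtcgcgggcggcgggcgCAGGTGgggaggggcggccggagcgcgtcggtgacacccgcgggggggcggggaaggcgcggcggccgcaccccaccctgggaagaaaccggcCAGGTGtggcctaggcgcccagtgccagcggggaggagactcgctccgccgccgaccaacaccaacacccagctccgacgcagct
OCLN: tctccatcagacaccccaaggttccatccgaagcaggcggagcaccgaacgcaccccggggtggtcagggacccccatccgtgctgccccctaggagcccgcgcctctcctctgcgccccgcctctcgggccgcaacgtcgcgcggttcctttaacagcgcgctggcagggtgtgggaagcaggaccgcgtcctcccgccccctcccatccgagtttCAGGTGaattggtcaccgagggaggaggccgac
CLDN7: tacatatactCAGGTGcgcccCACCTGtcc
A match describes these letters only and shows no binding; the start sites in use in these lines were not measured.

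Keratins went with the junction genes in part. Of 18 keratins, 13 were on the array and 7 were bright enough to be tested, of which 5 were higher and 1 lower in carcinoma, and 3 (KRT19, KRT7 and KRT18) had no overlap. KRT18, the partner keratin of simple epithelia, ran from 2696 to 3792 in carcinoma, but U251 (2468, 2408 and 2048) and HT1080 (2066, 1855 and 1846) were nearly as bright, and U87 lay between 6.1 and 7.0. The mesenchymal lines were thus far apart in KRT18, whose difference was 2.83. KRT8 likewise stood between 983 and 2511 in U251 and HT1080, overlapped with MDA231 (2066, 1635 and 2898.5), and was at most 42.8 in U87. KRT7 stood at 2300, 2667 and 2431 in DU145 and at 731, 519 and 710 in MDA231, against at most 282 elsewhere (3.81). The probe set used for KRT7 has a name ending in _s_at; with all names ending in _x_at or _s_at left out, the KRT7 probe set then chosen gave a difference of -0.0035, and the median of the 4 keratins then tested was 0.29.

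Regulators of epithelial identity were higher or not called. Of 27 genes, 22 were tested, 15 were higher and 0 lower, and 4 (SPINT2, MAL2, ERBB3 and ESRP1) had no overlap; the median was 1.08, and 0.81 without MDA231 replicate 3, with 15 of 21 higher. ESRP1, a splicing regulator of epithelial isoforms, had 36.5, 262 and 309.5 in DU145 and 30.5, 30.7 and 106 in MDA231, against at most 27.3 in mesenchymal arrays. EHF, an epithelial ETS factor, stood at 2707, 2532 and 2221 in MDA231 and at 21, 82.9 and 51.9 in DU145. ELF3, of the same family, had the opposite order, with 279.6, 364 and 326 in DU145 and 29.7, 13.8 and 88.6 in MDA231. GRHL2, a keeper of epithelial junction genes, differed by 0.69 and missed the threshold (limma, adjusted p = 0.0926).

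Regulators of EMT were divided. Of 18 genes, 15 were tested, 2 were higher and 8 lower in carcinoma, and 3 (TWIST1, TCF4 and ZEB2) had no overlap; the median was -0.63. Without MDA231 replicate 3, 4 were higher and 8 lower. TWIST1, a transcription factor of mesenchyme, ran from 183 to 365 in mesenchymal arrays and did not pass 6.0 in carcinoma (-3.67 ± 0.10; limma, adjusted p = 4.92e-13 with arrays and 0.0589 with lines as units). TCF4, an E protein, ran from 214 to 606 against 4.8 to 36.4 (-3.58). ZEB2 had 5.4, 7.7 and 11.4 in DU145 and 176, 122 and 71 in MDA231, against 258 to 636 in mesenchymal arrays (-2.94).

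ZEB1, the closest relative of ZEB2, did not follow this pattern. It stood at 1842, 1665 and 785 in MDA231, at 1236, 1180.3 and 1282 in U87 and at 1779, 1330.3 and 1378 in HT1080. It was lower in DU145 (395, 284 and 298) and in U251 (371, 322 and 322). Its difference of -0.36 missed the threshold (limma, adjusted p = 0.0772), and without DU145 it was 0.64. SNAI2 was lower in carcinoma (-2.36), with 125 to 407 against 376 to 3182, and SNAI1 was dim in every array, at 32.4 or less (-0.11; limma, adjusted p = 0.422). FOXQ1, a forkhead factor, was the largest excess in the list (2.97), through MDA231 alone: 2302, 2374 and 2165 there against at most 34.6 in the other 12 arrays.

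Mesenchymal markers were mostly lower in carcinoma, with exceptions. Of 20 genes, 19 were tested, 11 were lower and 2 higher, and 3 (SPARC, CDH2 and ACTA2) had no overlap; the median was -0.99. CDH2, which encodes N-cadherin, ran from 136.5 to 604 in mesenchymal arrays and from 1.0 to 19 in carcinoma (-3.73 ± 0.21). ACTA2, which encodes smooth muscle actin, ran from 247 to 3425 against 82.9 to 133 (-3.04). FN1, which encodes fibronectin, was at 15.6, 111 and 93.1 in DU145 and 678, 459 and 336 in MDA231, and U251 (301, 173 and 223) lay below MDA231 (-2.36). Vimentin differed by -0.42 ± 0.14 (limma, adjusted p = 0.0243 with arrays and 0.68 with lines as units), and it was not called in 3 of the 15 fits that left out 1 array or after quantile normalization (-0.10; limma, adjusted p = 0.214). The exceptions were NT5E (2.22), which encodes the surface nucleotidase CD73, and S100A4 (1.31), both called mesenchymal markers in the list. NT5E was brighter in U87 (1933, 1651 and 2691) than in any carcinoma array (1077 to 1530.1).

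**Figure D3:**
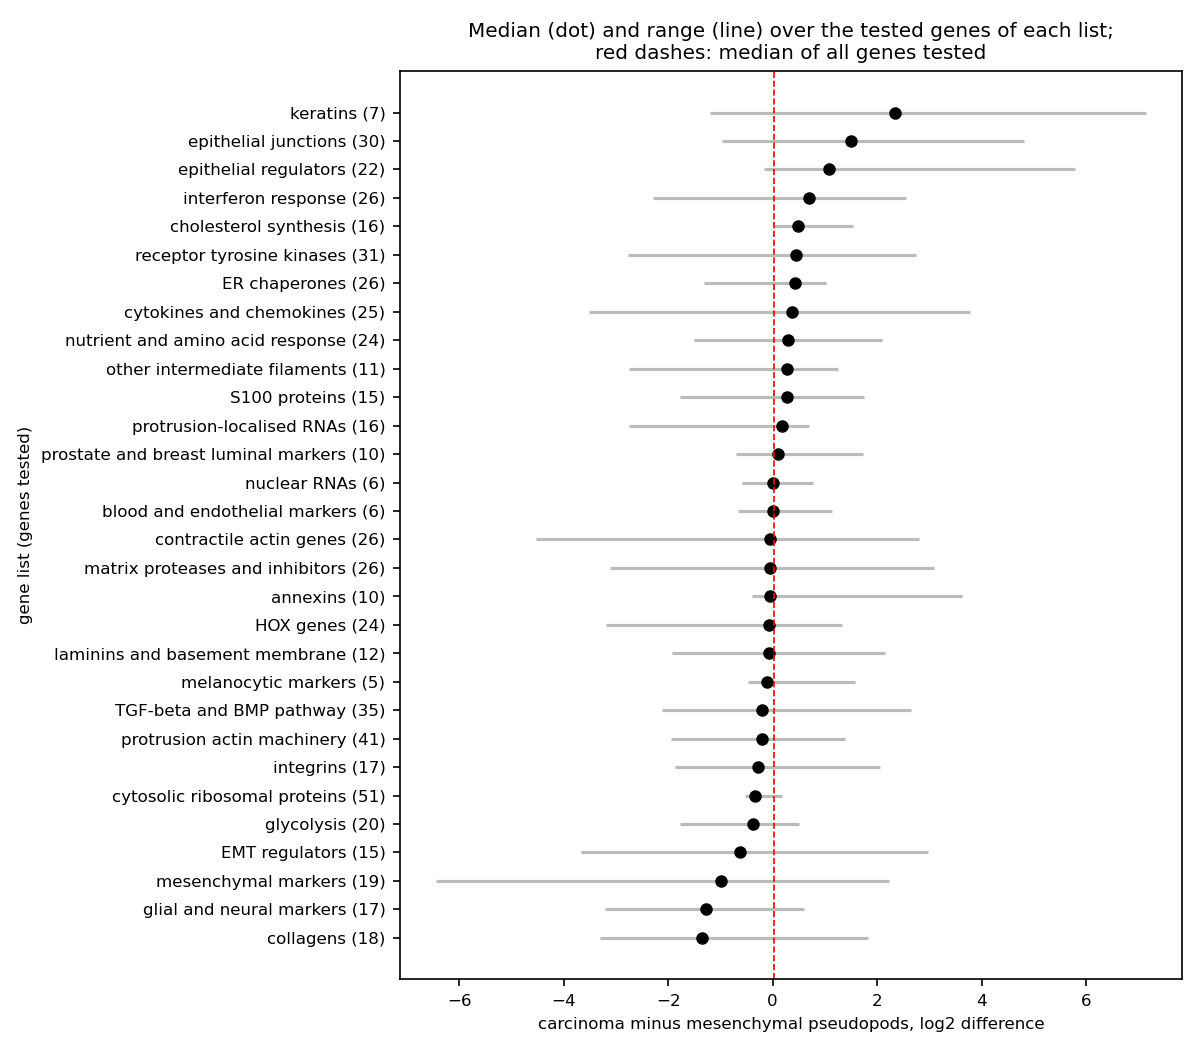
Median (dot) and range (line) of carcinoma minus mesenchymal log2 differences over the tested genes of 30 gene lists, with the number tested in brackets and the median of all genes as a dashed line. Keratins, epithelial junctions and epithelial regulators lie highest, with medians of 2.34, 1.501 and 1.08, and collagens lowest, at -1.36.

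Collagens were the list with the lowest median. Of 21 genes, 18 were tested, 13 were lower and 2 higher in carcinoma, and the median was -1.36, but in 0 of them were the arrays without overlap. The mesenchymal lines differed from one another in 17 of the 18 (limma, moderated F test). COL1A2 stood at 1999, 1095 and 3479.9 in U87 and 810, 648 and 619 in U251, and at 39.2, 7.9 and 23.6 in HT1080, beside 9.9 to 34.2 in carcinoma (-3.30). COL6A3 stood at 2685, 1323 and 3242 in U87 and 2198, 1330.3 and 1714 in HT1080, and at 47.2, 36.8 and 79.9 in U251 (-3.26). COL13A1, a transmembrane collagen, was higher in carcinoma (1.82), at 679, 259 and 245 in DU145 and 1847, 1663 and 1254 in MDA231, though HT1080 (732, 540.0 and 579) overlapped with DU145.

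Among genes of cell-matrix contact there was no common direction. Of 12 laminins and basement membrane genes tested, 4 were higher and 5 lower, and LAMB3, a laminin-332 chain, was the 1 without overlap (820 to 1467 against 48 to 758, a difference of 2.16). Of 17 integrins tested, 6 were higher and 5 lower. ITGB1, the common beta subunit, was bright in every array, from 2888 to 4086.5 in carcinoma and from 2073 to 5159 in mesenchymal arrays (a difference of -0.0020, 95% interval from -0.27 to 0.27). ITGB2 had no overlap at dim levels (54.2 to 111 against 10.5 to 25, a difference of 1.61). ITGA6, a laminin receptor, was higher in carcinoma (2.05), with U87 at 46.4, 24.7 and 60.4 and U251 and HT1080 between 461 and 737.

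Of 26 matrix proteases and inhibitors tested, 8 were higher and 9 lower, and 4 had no overlap, beside 26.7%, 22.7% and 6.21% of all genes. MMP2, a gelatinase, lay between 29.2 and 35.2 in carcinoma, against 801, 680 and 1843 in U87, 144, 134 and 144.5 in U251 and 589, 478.5 and 303 in HT1080 (-3.12). MMP16, a membrane-type matrix metalloprotease, ran from 51.4 to 269 against 5.8 to 24.5 (-2.41), and SERPINE2, which encodes protease nexin-1, from 966 to 2801 against 527 to 958 (-0.99). ADAM17, the sheddase of TNF and EGFR ligands, was higher in carcinoma, from 308 to 754 against 109 to 291 (1.23). MMP1 was high in MDA231 alone, at 2275, 2023 and 3054. MMP14, the membrane collagenase, was dim throughout, at 85.9 or less, and differed by 0.31 (limma, adjusted p = 0.0876).

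In the actin machinery of protrusions more genes were lower than higher in carcinoma. Of 44 genes (the ARP2/3 complex, WAVE and WASP regulators, formins, cofilins, profilins and bundling proteins), 41 were tested, 16 were lower and 6 higher in carcinoma, and the median was -0.20. After quantile normalization 12 were lower and 7 higher, with a median of -0.02. For 12 of the 41 the 95% interval lay within 0.5 log2 units of 0, beside 35.7% of all genes. ARPC2, an ARP2/3 subunit, ran from 2499 to 3228 in carcinoma and from 3366 to 5234 in mesenchymal arrays (-0.54 ± 0.11; limma, adjusted p = 0.000774 with arrays and 0.611 with lines as units), and its difference was -0.29 after quantile normalization. CYFIP2, a subunit of the WAVE complex, ran from 37.2 to 69.9 against 117 to 504 (-1.95 ± 0.11). These were the 2 members without overlap. Without U87 replicate 3, 20 of 41 were lower, and without MDA231 replicate 3, 12 of 40 were lower and 8 higher.

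**Figure D4:**
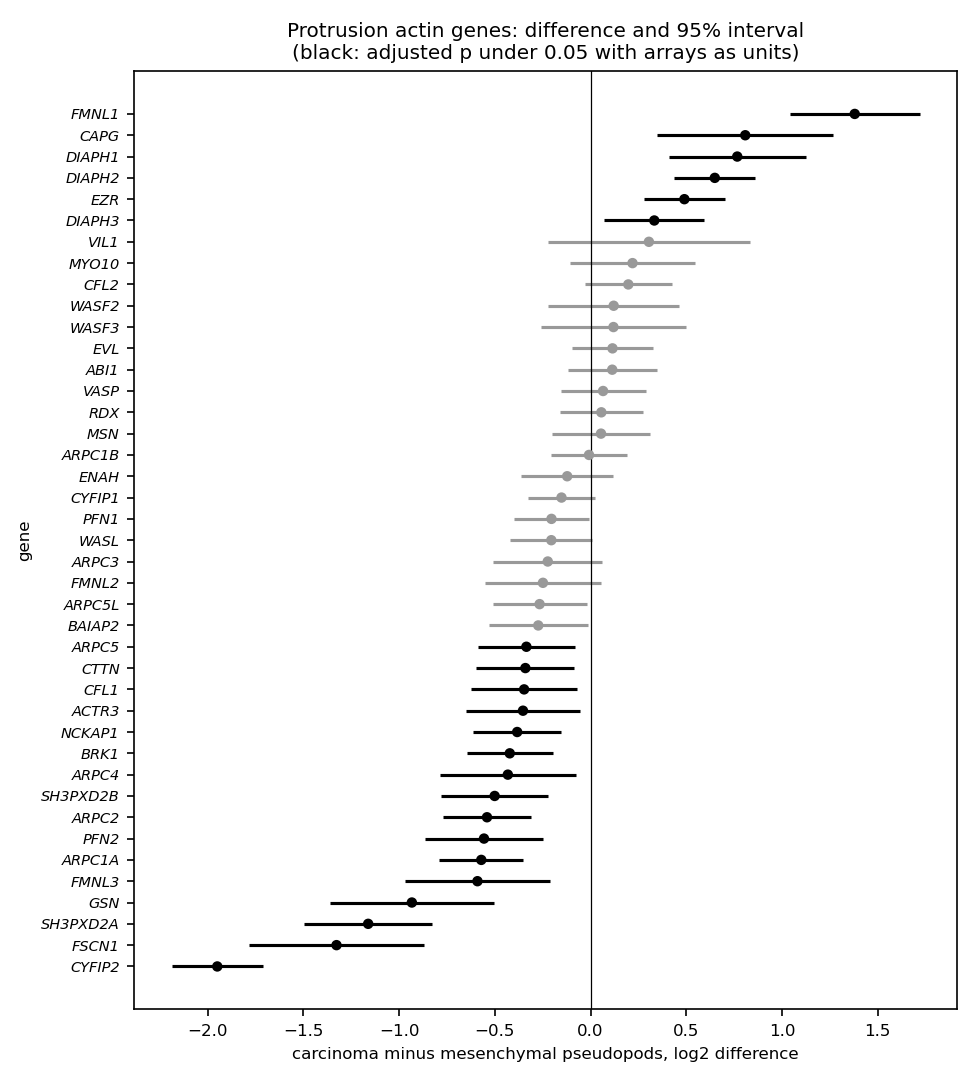
Carcinoma minus mesenchymal difference (dot) and 95% interval (line) of 41 protrusion actin genes in log2 units, with black marking an adjusted p under 0.05 with arrays as units. FMNL1 lies highest at 1.38 and CYFIP2 lowest at -1.95, and the ARP2/3 subunits lie between ARPC1A at -0.57 and ARPC1B at -0.01.

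The paralogues of some of these genes differed. FSCN1, the filopodial bundling protein fascin, was lower in carcinoma (-1.33), with U251 at 978, 931 and 778 and the other 12 arrays at 326 or less. The formins DIAPH1 (0.77), DIAPH2 (0.65), DIAPH3 (0.33) and FMNL1 (1.38) were higher and FMNL3 (-0.59) lower. SH3PXD2A, the invadopodia scaffold TKS5, was lower in DU145 (174, 109.5 and 125.5) than in MDA231 (921, 597 and 405) and in every mesenchymal array (507 to 832). EZR, which encodes ezrin, was higher in MDA231 (932, 897 and 832) and U251 (1051, 955 and 1193) than in the other lines (at most 278.5), so its called difference of 0.49 does not divide the groups.

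Of 26 contractile actin genes tested, 11 were lower and 5 higher in carcinoma, with 4 without overlap and a median of -0.04. Without MDA231 replicate 3, 11 were lower and 8 higher. MYH10, non-muscle myosin IIB, was higher in carcinoma (2.81 ± 0.14), at 1743, 1880.5 and 1652 in DU145 and 633.5, 742.5 and 741 in MDA231, against 28.5 to 335 in mesenchymal arrays. CALD1, which encodes caldesmon, was lower (-1.85), from 612 to 1739 against 2757 to 4839, as was CSRP1 (-0.93). With TPM2, the tropomyosins TPM1 (-0.88) and TPM4 (-0.89) were lower. MYH9, non-muscle myosin IIA, differed by 0.24 and did not pass the test.

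Transcripts known to be carried into protrusions in other cells were not shifted as a list. Of 16 tested, 3 were higher and 4 lower, with a median of 0.18. RAB13 was lower in carcinoma (-0.43 ± 0.12; limma, adjusted p = 0.00937), at 1589 to 2043 against 1676.5 to 3931, and NET1 was higher (0.43; adjusted p = 0.0347) through MDA231 (2846, 2388 and 1874); without MDA231 its difference was -0.27, and in 9 of the 15 fits that left out 1 array it was not called. DDR2, a collagen receptor kinase, was the 1 member without overlap, at 17.4 to 28.9 in carcinoma and 164 to 732 in mesenchymal arrays (-2.75). Of 15 S100 genes tested, 6 were higher and 4 lower, and S100P had no overlap (1.74). Of 10 annexins, 3 were higher and 3 lower, and 0 lower after quantile normalization or equal array medians. ANXA3 was even over the carcinoma arrays, from 2096 to 2343, and uneven in the mesenchymal lines, with at most 8.5 in U87, 667 to 922 in U251 and 317 to 367 in HT1080 (3.63).

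Receptor tyrosine kinases had 10 of 31 tested genes without overlap, 7 higher and 3 lower in carcinoma, beside 6.21% of all genes in either direction. In all, 15 were higher and 7 lower, with a median of 0.44. EGFR, the epidermal growth factor receptor, stood at 708, 372 and 491 in DU145 and 526, 459 and 470.3 in MDA231, against 73.8 to 321 in mesenchymal arrays (1.66 ± 0.23; limma, adjusted p = 2.3e-05 with arrays and 0.158 with lines as units). Its family members ERBB3 (2.32) and ERBB2 (0.92) were also higher without overlap, as were ROR1 (2.74), MERTK (1.89), MST1R (1.70) and AXL (1.28). AXL, often listed with mesenchymal carcinoma cells, ran from 1133 to 1947 in carcinoma and from 402 to 1105.5 in mesenchymal arrays.

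The receptors of platelet-derived growth factor went the other way. PDGFRA stood at 1514, 1281 and 1469 in U251, at 25.6, 35 and 118 in U87 and at 8.7, 13.3 and 12.6 in HT1080, against at most 8.2 in carcinoma (-2.76). PDGFRB was dim in every array, at 59.6 or less (-0.56). MET, the receptor of hepatocyte growth factor, was higher in carcinoma (0.94) but U87 (1314, 635 and 1551) overlapped with MDA231 (823, 632 and 1353).

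Signalling ligands and patterning genes were unlike in their members without overlap. These were 3 of 35 in the TGF-beta and BMP pathway, 1 of 25 cytokines and chemokines and 4 of 24 HOX genes, beside 6.21% of all genes. The share of HOX genes was above that of all genes. Of the 35 pathway genes tested, 11 were higher and 13 lower. BMP4 was higher (2.64) through MDA231 (383, 457 and 1048), with DU145 at 11.2, 6.1 and 3.9 only just above the mesenchymal arrays (at most 3.3), and ENG (-1.07) and TGFB3 (-0.87) were lower. Of the 25 cytokines and chemokines, 12 were higher and 7 lower, and CSF1, the macrophage growth factor, ran from 257 to 440 against 44.6 to 160 (1.77). Of the 24 HOX genes, 5 were higher and 9 lower, and the 4 without overlap all lay in the HOXD cluster. HOXD8 (-2.61), HOXD10 (-3.20) and HOXD11 (-2.03) were lower and HOXD1 (1.33) higher in carcinoma.

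Genes of nutrient use were measured because the media differed. Of 24 nutrient and amino acid response genes tested, 10 were higher and 4 lower, with a median of 0.30. Without probe sets whose names end in _x_at or _s_at, 15 were tested, 5 higher and 3 lower, with a median of -0.005. The probe sets used for SLC7A5 and SLC3A2 are among those left out. SLC7A5 (2.09) and SLC3A2 (1.02), the subunits of the large neutral amino acid transporter LAT1, had no overlap: SLC7A5 ran from 1119 to 1612 in carcinoma and from 65.1 to 621 in mesenchymal arrays, and SLC3A2 from 602 to 1168 against 212 to 564. In the cell bodies SLC7A5 differed by 1.43 and SLC3A2 by 0.26, the latter not called (limma, adjusted p = 0.219). The difference between fractions was called for neither gene (0.66 and 0.77; limma interaction, adjusted p = 0.171 and 0.087). Of 16 cholesterol synthesis genes, 13 were higher and 0 lower, with a median of 0.48; 11 of the 16 were also higher in DU145 than in MDA231, and 9 of 16 were higher in carcinoma without DU145 replicate 1. Of 20 glycolysis genes, 12 were lower and 3 higher, with a median of -0.38; after quantile normalization 6 were lower and 4 higher, with a median of -0.07. HK1, a hexokinase, had no overlap (1328 to 1715 against 1762 to 3415). The part of the medium in these values was not tested.

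Of 26 interferon response genes, 14 were higher and 2 lower, with a median of 0.69, and 2 had no overlap, beside 6.21% of all genes. The mesenchymal lines differed from one another in 23 of the 26 (limma, moderated F test). The summed intensity of the list overlapped between the groups, from 7281 to 19818 in carcinoma and from 4043 to 22915 in mesenchymal arrays. IRF7, a transcription factor of the antiviral response, ran from 127 to 386 against 3.0 to 77.5 (2.56), and IFIT2 from 349 to 998 in DU145 and 383 to 1265 in MDA231, against 60 to 296.5 (2.54). Of 51 cytosolic ribosomal protein genes tested, 27 were lower and 0 higher, with a median of -0.35 and differences from -0.54 to 0.18. Their count depended on single arrays, with 45 lower without U87 replicate 3, 18 without MDA231 replicate 3 and 8 without DU145 replicate 1. It also depended on the scaling, with 6 lower after equal array medians and 2 after quantile normalization, where the median was -0.02. Of 26 ER chaperones, 9 were higher and 2 lower, with 17 higher without U87 replicate 3 and 7 without MDA231 replicate 3. The list's median was 0.42 in pseudopods but -0.34 in the cell bodies of the same lines. In the test of the difference between fractions 1 of the 26 was called, beside 0.902% of all genes.

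The reference genes ACTB (-0.27) and GAPDH (-0.32) missed the threshold (limma, adjusted p = 0.0932 and 0.0803), and both differences were above 0 after quantile normalization, at 0.097 and 0.0056. MALAT1, a nuclear RNA, differed by -0.59 (adjusted p = 0.0573, limma), from 713 to 4182 in carcinoma and 2274 to 4109 in mesenchymal arrays. RNA45SN5, the ribosomal RNA precursor, differed by 0.10 ± 0.46 and was highest in U87 replicate 3, at 408, where the other 14 arrays did not pass 115.

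Other cell types and tissues of origin were followed by their markers. Of 17 glial and neural markers tested, 12 were lower and 1 higher in carcinoma, and GAP43 and NCAM1 had no overlap. GAP43, a growth cone protein, ran from 19.3 to 1296 in mesenchymal arrays, highest in U251, and from 1.2 to 5.0 in carcinoma (-3.21). NCAM1, a neural cell adhesion molecule, ran from 61.4 to 186 against 29.4 to 59.4 (-1.27). SOX2, a neural stem cell factor, was high in U251 alone, with 1949, 1715 and 1634 against at most 19.2 in the other 12 arrays. U87, though a glioblastoma line, had SOX2 at 6.8 to 11.4 and GPM6A at 17.9 to 20.4. Of 10 prostate and breast luminal markers, 3 were higher and 1 lower; FOXA1 stood at 297, 291.5 and 340 in DU145 and at 14.1, 15.5 and 237 in MDA231. The summed intensity of this list was 1364 to 2114 in carcinoma and 802.5 to 1169.7 in mesenchymal arrays. Its median difference was only 0.095, however, and 0 of the 10 members were without overlap. Of 6 blood and endothelial markers tested, 1 was higher and 1 lower, and the sums over the 9 on the array overlapped (197 to 371.5 against 132 to 446). Of 5 melanocytic markers, 1 was higher and 2 lower, MITF being higher in carcinoma (1.58), with sums over 11 genes of 1178 to 2124 against 963 to 3077. The part of other cells in the differences was not tested.

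The carcinoma lines differed from each other in 5311 genes (36.2%), 2759 higher in DU145 and 2552 in MDA231 (limma). UCHL1, a neuronal ubiquitin hydrolase, was the largest excess in DU145, at 3489, 4148 and 3366 against 27.4, 26.5 and 22.3 in MDA231 (6.47 ± 0.15). It was as bright in U87 and U251 (3419 to 4736) and dim in HT1080 (at most 40.1). BCHE (5.73), SLC25A21 (5.52), the cell cycle inhibitor gene CDKN2A (5.38), CBS (5.19), RFLNB (5.15), GJC1 (5.07) and DDX43 (5.03) followed. Higher in MDA231 were SHISA2 (-6.12), ETV1 (-5.92), FOXQ1 (-5.72), IGFBP1 (-5.57), IGFBP7 (-5.55), ADGRF5 (-5.37) and EHF (-5.31). IGFBP7, a secreted growth factor binding protein, was at 15, 61.8 and 70.6 in DU145 and at 2459 to 2942 in MDA231, which lay within the range of the mesenchymal arrays (1175 to 4685).

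Among the mesenchymal lines 7859 genes (53.6%) differed (limma, moderated F test). Of these 3 lines, U87 had the highest levels of EREG, an EGFR ligand (1754 to 2264), TCEAL7, TFPI2 and GREM1, a secreted BMP antagonist (1378 to 2607.5). EREG was not particular to it, since DU145 held 1519 to 1857, and DU145 also had TFPI2 at 752 to 951. U251 led in SOX2-OT, SOX3, GPM6B and CALB1, all known from neural tissue, and HT1080 in the cancer/testis genes CTAG2 and MAGEB2 with DHRS2 and LINC01029. As a description over 14676 genes, line means correlated at r = 0.902 between DU145 and MDA231, at 0.864 to 0.905 between mesenchymal lines, and at 0.848 to 0.892 across the groups. MDA231 was thus about as near to HT1080 (0.892) as to DU145.

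The same contrast was made in the cell bodies of the 5 lines. Of the 912 genes without overlap in pseudopods, 908 had the same sign in cell bodies, 878 were also called there in that direction, and 538 were again without overlap. Over all genes, the cell body arrays gave 7784 called, 4365 higher and 3419 lower in carcinoma, and 967 without overlap. The share of all genes with the same sign in both fractions was not counted. KRT19 differed by 7.16 in pseudopods and 6.84 in cell bodies, and SPARC by -6.46 and -7.05. The cell bodies come from the same lines, so this repeats the lines and not the kind of line. A test of the difference between fractions called 137 of 15183 genes (0.902%), of which 120 were positive (0.79%) and 17 negative, and 2062 had an unadjusted p under 0.05 (limma, interaction). Of the 120 positive genes, 97 were lower in carcinoma in the cell bodies, and in 74 of these the difference was smaller in size in pseudopods.

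**Figure D5:**
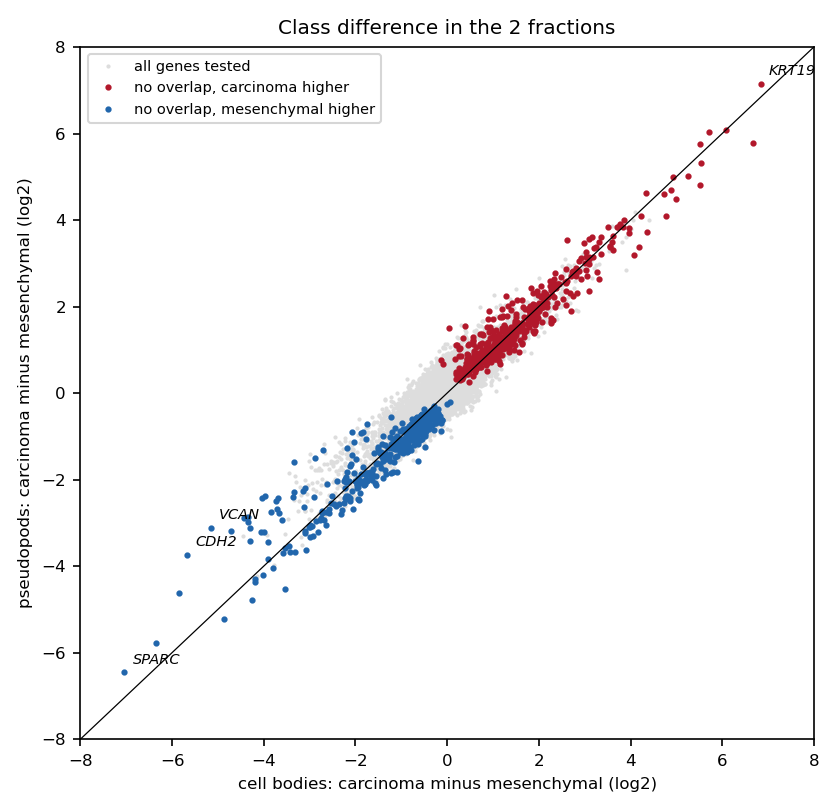
Carcinoma minus mesenchymal difference in cell bodies (horizontal axis) and in pseudopods (vertical axis), in log2 units, for all genes tested; coloured points are genes whose pseudopod arrays do not overlap and the line marks equal differences. Most coloured points lie near the line, and VCAN (-3.11 against -5.16) and CDH2 (-3.73 against -5.68) lie above it.

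CDH2 had a difference of -3.73 in pseudopods and -5.68 in cell bodies (interaction 1.95 ± 0.24; limma, adjusted p = 9.91e-05). Its mean intensity in the mesenchymal lines was 329.8 in pseudopods and 1086 in cell bodies, against 7.67 and 4.9 in carcinoma. VCAN, which encodes the matrix proteoglycan versican, followed the same pattern with mesenchymal means of 313 and 1267 and an interaction of 2.05 ± 0.35. Both genes were so dim in carcinoma that a fall in its pseudopods could hardly be seen. In the epithelial junction, keratin, EMT regulator, collagen, protrusion actin and contractile lists 0 members were called in this test. That count is near the 0.902% of all genes and does not show equal differences. The collagen median was -1.36 in pseudopods and -2.16 in cell bodies. Members called numbered 4 in the matrix protease, 3 in the receptor tyrosine kinase and 2 each in the laminin and the glial and neural lists, all positive. SPINT2 was called with a negative interaction (-0.89; limma, adjusted p = 0.0202), its difference being 5.78 in pseudopods and 6.67 in cell bodies. The number of calls depended on the arrays, with 66 without U251 replicate 2 and 930 without U87 replicate 3.

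MDA435 shared the medium of the carcinoma lines. Of the 912 genes without overlap, its pseudopod mean lay on the carcinoma side of the midpoint between the groups in 466 (51.1%), 248 of 499 carcinoma-higher and 218 of 413 mesenchymal-higher genes. Its HTATIP2 (2186, 2402 and 2703) and PLIN2 (779, 1572.5 and 1827) lay near the carcinoma arrays. Its SPARC (1066.5, 1146 and 1988) overlapped with the mesenchymal arrays, and its MAGEA1 (1448, 2477 and 2626) exceeded all of them. Its replicates disagreed in epithelial genes, with CDH1 at 2073, 921.5 and 33.2, KRT19 at 785, 429 and 1.1 and BMP4 at 912, 400.4 and 3.9. The midpoint count rests on the mean of these unequal arrays. With MDA435 added to the carcinoma lines, 351 genes had no overlap of arrays.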

How the data were processed

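The table that the authors deposited holds linear intensity values between 0 and 9883.2 for 54593 probe sets in every array. RMA and Partek are named in the submitters' processing notes, with no role or version. RMA gives log2 values, so which program made these linear ones is unknown (not given in the sources used here). Here log2(intensity + 16) was computed. Of the probe sets, 41074 carried 1 gene symbol in the platform annotation, 1798 several and 11721 none; 41020 were brought to current symbols by Entrez number. The latter kinds stayed out. Each of 19775 genes was represented by 1 probe set, that of the highest average intensity across the 36 arrays, and 14676 genes with a highest group mean of at least 24.4 (the median intensity of the table) were tested (15183 for the interaction with cell bodies). Arrays give no counting depth; their number limits the precision.

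Models were fitted with limma 3.58.1 in R 4.3.3 on 5 group means of 15 arrays (10 residual degrees of freedom), on 5 line means, and on 10 group means of 30 arrays for the interaction; a call needed an adjusted p under 0.05 (Benjamini-Hochberg). The fits were tested on simulated data. Named genes are the 15 largest differences each way without overlap of arrays, up to 5 such members of each list each way (where there were none, the 2 largest called), the 5, 6, 8 or 4 largest of the other tests, and 12 genes fixed by name. Other genes were named after their values were seen. Genes and lists were chosen with earlier results of these data known. Sex-linked transcripts of the Y chromosome and the X inactivation transcript were left out. Replicate numbers were not taken as pairing, since the labels give them no shared source and not every same-numbered pair of arrays deviated together. Alternatives were other normalizations, pseudocounts, filters, probe set rules, array weights, blocks, and leaving out arrays or lines. Promoter sequences came from RefSeq (GRCh38.p14). One gene list and the genes that belong to it are not reported here.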

Additional observations from a re-analysis of the deposited data

Results flagged for a closer look

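For 6 genes the difference between carcinoma and mesenchymal lines had another size in pseudopods than in cell bodies by the test of that difference itself (limma interaction over 30 arrays; the largest of 137 called genes). Each value is the pseudopod difference minus the cell body difference in log2 units, and all 6 genes were lower in carcinoma in both fractions. VCAN had 2.05 (adjusted p = 0.00639), from -5.16 in cell bodies to -3.11 in pseudopods. CDH2 had 1.95 (adjusted p = 9.91e-05, limma). GPNMB, a transmembrane glycoprotein of pigment cells and macrophages, had 1.73 (limma, adjusted p = 0.00441), with mesenchymal means of 151 intensity units in pseudopods and 564 in cell bodies. SYT11, a synaptotagmin of vesicle traffic, had 1.61 (limma, adjusted p = 0.00184), with mesenchymal means of 140.2 and 511. ITGBL1, a secreted integrin-like protein, had 1.61 (limma, adjusted p = 1.36e-05), with 137 and 490.1. DKK3, a secreted protein of the Dickkopf family, had 1.60 (limma, adjusted p = 0.00675), with 346 and 1060.2. The carcinoma means of all 6 genes stayed at 86.4 intensity units or less in either fraction, and those of VCAN, CDH2, SYT11 and ITGBL1 lay near or below the pseudocount of 16. For VCAN, CDH2, SYT11 and ITGBL1 a fall in carcinoma pseudopods could hardly be seen at such levels. Their values reflect the lower mesenchymal means in pseudopods and cannot show whether carcinoma pseudopods behave otherwise. GPNMB and DKK3 were brighter, with carcinoma means of 42.1 and 86.4 in cell bodies and 37.25 and 75.3 in pseudopods.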

How the results depend on the processing

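The count of genes called with arrays as units (7243) stayed within 1.5 times under every setting but 1: with the line as a random block it was 337 (consensus correlation 0.67). Leaving out 1 array gave 6542 to 7764; the DU145 and MDA231 count ran from 4263 to 5903 and the mesenchymal F test from 7132 to 8558. The replicate number as a block gave 7313, 181 for the interaction, 5368 and 7916; over 30 same-numbered pairs the correlation of deviations ran from -0.244 to 0.215, with a mean of 0.0448 against -0.0226 for other pairs, and 11 of 15 arrays correlated best with an array of their own number, a hint from the data and not the design. With lines as units the count was 9 with the mean of all probe sets and 11 to 20 without 1 array. The interaction count (137) was 377 with equal array medians, 21 with a pseudocount of 1, 343 with 64, 230 with a filter at 100, 1401 with array weights, and 66 to 930 without 1 array (86 and 85 without HT1080 replicates 2 and 3, 79 and 68 without DU145 replicates 2 and 3). The count without overlap (912) was 943 to 1138 without 1 array and 351 with MDA435 added. It was 2305 without DU145, 3338 without MDA231, 1607 without U87, 1776 without U251 and 1578 without HT1080. Fewer arrays are easier to separate and more arrays harder, but what set the size of each change was not tested. Chosen after seeing the data: lines as units with MDA435 added gave 7, and lists were recounted without doubted arrays. Signs turned for ACTB (0.097) and GAPDH (0.0056) after quantile normalization, for KRT7 (-0.0035) without probe sets whose names end in _x_at or _s_at, for ZEB1 without DU145 (0.64) or HT1080 (0.029) and for NET1 without MDA231 (-0.27). RNA45SN5 was -0.019 with a pseudocount of 64, -0.21 without DU145, -0.46 without U251, -0.25 with MDA435 added, and from -0.20 to 0.42 without 1 array. The causes were not tested. For named genes, 2163 results under settings other than leaving out 1 array kept their direction and side of the threshold, 67 lost the call and 16 gained it. Without 1 array, 2029 kept both, 12 lost the call (NET1 in 9, VIM in 3) and 8 gained it (MALAT1 in 4). Dim genes are limited by the signal near the floor of the arrays.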
